A study of Mus musculus with 22 samples.

Results

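Messenger RNA of mouse embryoid bodies kept with TBBPA (tetrabromobisphenol A, used as a flame retardant) was compared with that of vehicle embryoid bodies at D18, read from the titles as day 18. The comparison rests on 4 of the 22 libraries of the series. They are 1 library with 10 nM TBBPA and 1 with 100 nM TBBPA, taken as a pair, against 2 libraries with 0.1% dimethyl sulfoxide (DMSO). All come from J1, an established mouse embryonic stem (ES) cell line, so 1 genetic background stands behind every value. The same 4 libraries exist for D4, D9, D12 and D28, and 2 are of untreated ES cells. Nothing in the labels states that the libraries within a DMSO or ES pair are from different cultures. The p-values therefore reflect the scatter among these particular libraries. In the DMSO and ES pairs that scatter could be purely technical, and in the TBBPA pairs it includes any effect of dose.

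An embryoid body is an aggregate of ES cells in which derivatives of the germ layers form side by side. In its neural part, progenitors with SoxB1 and POU class 3 factors switch on proneural transcription factors and leave the cycle as neurons, which build microtubules, growth cones and synapses. In its mesodermal part, myogenic factors of the MyoD family switch on the sarcomere genes of skeletal muscle, and fibroblast-like cells lay down collagens and elastic fibres.

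Neural genes were higher and muscle, matrix and epithelial genes were lower with TBBPA at D18. A gene is said to rise, to fall or to pass when its adjusted p was under 0.05 in edgeR's quasi-likelihood test, with the Benjamini-Hochberg adjustment over all 16383 genes tested. By this rule 1723 genes (10.5%) passed, of which 976 were higher with TBBPA (5.96% of the genes tested) and 747 were lower (4.56%). The changes were mostly small: the median size was 0.52 on the log2 scale for genes that rose and 0.63 for genes that fell. Among the rises 49 were over 2-fold and 0 over 4-fold, and among the falls 171 were over 2-fold and 34 over 4-fold. The median log2 change of all genes tested was 0.02. In every gene that passed, both TBBPA libraries lay on the same side of both DMSO libraries, which also held for 55.2% of all genes tested.

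**Figure D1:**
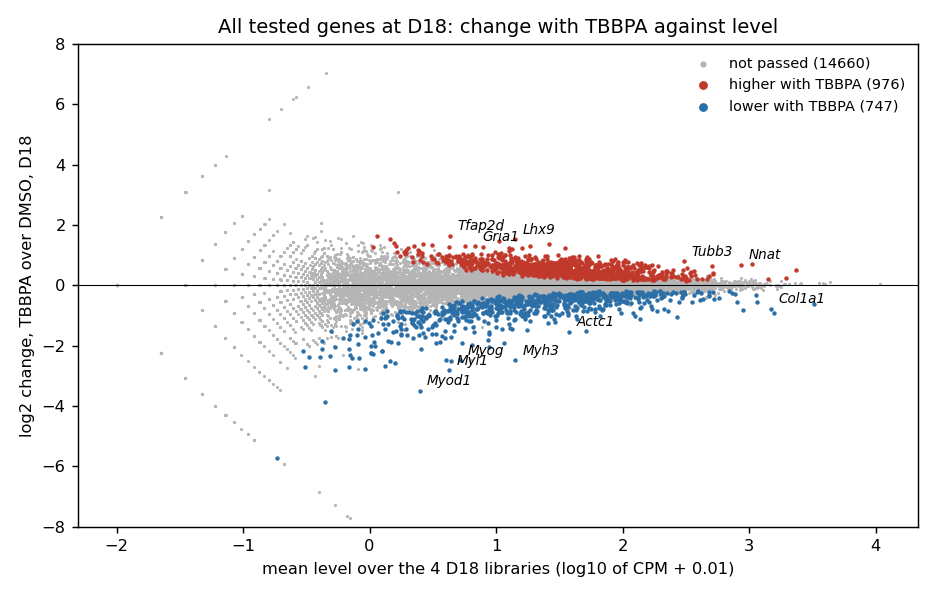
Log2 change of TBBPA over DMSO at D18 (vertical axis) against the mean level over the 4 libraries (horizontal axis, log10 of CPM + 0.01), 1 point for each of 16383 genes, with red for genes that rose, blue for genes that fell and grey for the rest. The 976 rises stay below a 4-fold change, while 34 of the 747 falls pass it, Myod1, Myl1, Myh3 and Myog among them. Most of those 34, Myod1 included, have a mean level under 2 log2 CPM.

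The number of calls depended on the DMSO pair. The DMSO libraries lay close together, with a mean chi-square of 2.31 per gene between them, against 6.81 between the TBBPA doses and 12.8 to 16.5 between a TBBPA and a DMSO library. The ES pair, which enters the shared spread, lay far apart, with a mean chi-square of 22.5. When the DMSO pairs are summed, the spread comes only from the ES and TBBPA pairs. With each DMSO pair of the series summed to 1 library, 173 genes passed, 94 higher and 79 lower. Without the 100 nM library 902 genes passed, without DMSO library 1 737, and without DMSO library 2 787.

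The libraries held 18530280 to 18998141 counts and the totals of the groups overlapped. Listed genes numbered 17508 and 17528 with TBBPA, against 17640 and 17604 with DMSO, and did not overlap. Levels below are CPM, the gene count relative to the scaled library size, given for the 10 nM and 100 nM libraries first and then for both DMSO libraries. The label calls the cells mESC. Pou5f1, a core pluripotency factor, had 126 and 144 CPM with TBBPA, against 129 and 142 CPM with DMSO, while the untreated ES libraries had 1251 and 1417 CPM. Pou5f1 was thus detected at D18 far below its ES level, beside markers of neurons, fibroblasts and muscle. In such bulk samples, fewer cells of a type and less RNA per cell cannot be told apart.

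Genes of the neuronal cytoskeleton rose almost as a block. Of 23 tested members of that list 20 rose and 0 fell, with a median log2 change of 0.63. Elavl3, a neuronal RNA-binding protein, had 179 and 175 CPM with TBBPA, against 103 and 106 CPM with DMSO, a log2 change of 0.75 ± 0.08 (SE; edgeR adjusted p = 4.49e-06). Stmn3, a microtubule-destabilising stathmin, had 75.3 and 61.9 CPM with TBBPA, against 35.8 and 35.1 CPM with DMSO, a log2 change of 0.95 ± 0.11 (edgeR adjusted p = 5.53e-06). In both genes each TBBPA library was above each DMSO library. Tubb3, the tubulin used as a standard marker of neurons, had 422 and 359.8 CPM with TBBPA, against 216 and 228 CPM with DMSO, a 1.76-fold difference (log2 0.81 ± 0.11, edgeR adjusted p = 0.000109). Ina, a neuronal intermediate filament protein, and the vesicle proteins Nsg1 and Nsg2 changed by 0.82, 0.72 and 0.78 on the log2 scale. The members that did not pass were Nefm (log2 0.49), Elavl2 (0.30) and Nefh (-0.19). The summed level of 6 neuron markers was 1379 and 1251 CPM with TBBPA, against 825 and 847 CPM with DMSO, and 6 of the 6 rose, and the part of cell numbers in the list was not tested. With the DMSO pairs summed 8 of the 23 passed.

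**Figure D2:**
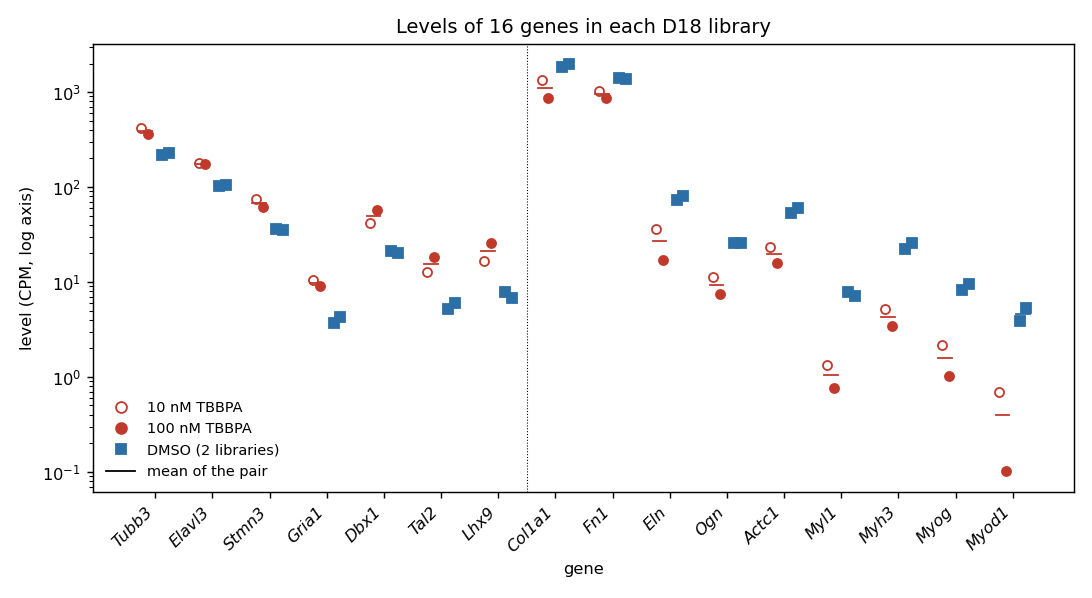
Level (CPM, log axis) of 16 genes in each D18 library, with open circles for 10 nM TBBPA, filled circles for 100 nM TBBPA, squares for DMSO and short lines for the mean of a pair. The 7 neural genes on the left lie higher in both TBBPA libraries and the 9 matrix and muscle genes on the right lie lower, down to Myod1 at 0.701 and 0.101 CPM with TBBPA against 3.91 and 5.26 CPM with DMSO.

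Neural progenitor genes rose as well. Of 24 tested members 14 rose and 1 fell, with a median log2 change of 0.51. Pou3f3, a POU class 3 factor of neural progenitors, had 62.8 and 77.9 CPM with TBBPA, against 37 and 38.6 CPM with DMSO, a log2 change of 0.89 ± 0.09 (edgeR adjusted p = 3.33e-06). Sox1, an early marker of neural commitment, had 49.6 and 55.7 CPM with TBBPA, against 27.3 and 27.5 CPM with DMSO, a log2 change of 0.94 ± 0.11 (edgeR adjusted p = 1.28e-05). The highest DMSO library stayed below the lowest TBBPA library for both. Pou3f2, Sox3 and Pou3f1 rose by 0.87, 0.88 and 0.71 on the log2 scale. Pax6, a progenitor factor of forebrain and spinal cord, had 24.5 and 31.9 CPM with TBBPA, against 22.3 and 23.1 CPM with DMSO, and did not pass (log2 0.31 ± 0.12, edgeR adjusted p = 0.106). The list held 0 falls when any of the 4 libraries was left out. Without the 100 nM library 8 progenitor genes rose, and with the DMSO pairs summed 6 did.

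Among proneural and neurogenic factors 11 of 20 tested members rose and 0 fell (median log2 0.62). Ebf3, a factor of early neurons, had 61.1 and 71.2 CPM with TBBPA, against 36.1 and 36.2 CPM with DMSO, a log2 change of 0.87 ± 0.11 (edgeR adjusted p = 1.51e-05). Both TBBPA libraries were above both DMSO libraries. Insm1, Myt1 and Nhlh1, which act in nascent neurons, changed by 0.72, 0.70 and 0.73 on the log2 scale. The count was 5 without the 100 nM library, 5 without DMSO library 1, 7 without DMSO library 2 and 1 with the DMSO pairs summed.

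The Notch pathway, which holds progenitors back from these factors, moved in parts. Of 26 Notch and hedgehog genes tested, 6 rose and 4 fell (median log2 0.04). The neural ligands Dll1 and Dll3 rose by 0.73 ± 0.12 and 0.52 ± 0.10 (edgeR adjusted p = 0.000234 and 0.00135). Hes5, a Notch target of neural progenitors, had 14.8 and 23.7 CPM with TBBPA, against 10.6 and 10 CPM with DMSO (log2 0.90 ± 0.17, edgeR adjusted p = 0.00118). Heyl, a Notch target of vascular smooth muscle, moved the other way, at 10.1 and 7.05 CPM with TBBPA, against 14.3 and 16.2 CPM with DMSO (log2 -0.83 ± 0.17, edgeR adjusted p = 0.00304). Without the 100 nM library 2 of the list rose and 0 fell, and falls numbered 2 without the 10 nM library, 1 without DMSO library 1 and 0 without DMSO library 2. Fgf15, an FGF of the neural tube, was among the genes of smallest p, at 50 and 59.9 CPM with TBBPA, against 28.8 and 28.1 CPM with DMSO (log2 0.95 ± 0.08, edgeR adjusted p = 4.53e-07).

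Transcription factors that pattern the neural tube were among the largest rises. Of 31 tested members of the dorsal and ventral neural tube list 12 rose and 0 fell (median log2 0.48), and 8 rose without the 100 nM library. Lhx9, a LIM homeobox factor, had 16.7 and 25.6 CPM with TBBPA, against 7.87 and 6.74 CPM with DMSO, a 2.89-fold difference (log2 1.53 ± 0.21, edgeR adjusted p = 5.36e-05). Tal2, a bHLH factor of midbrain GABAergic neurons, had 12.6 and 18.3 CPM with TBBPA, against 5.16 and 5.95 CPM with DMSO, a 2.77-fold difference (log2 1.47 ± 0.17, edgeR adjusted p = 1.15e-05). For both, the 100 nM library was the highest and the DMSO libraries were the lowest. Tal1, a bHLH factor related to Tal2 and also a blood factor, rose by 1.32 ± 0.19, and Dbx1, which marks interneuron progenitors, by 1.25 ± 0.14. The summed level of 4 erythroid markers was 0.45 and 1.01 CPM with TBBPA, against 0.451 and 0.645 CPM with DMSO, and 0 of them passed.

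The 12 largest rises by the naming rule also held Tfap2d, an AP-2 factor, with 5.65 and 7.45 CPM with TBBPA, against 1.7 and 2.48 CPM with DMSO. At 3.12-fold (log2 1.64 ± 0.33, edgeR adjusted p = 0.00254) it was the largest of them. Sox14, a factor of GABAergic neurons, and Sst, the neuropeptide somatostatin, rose 2.45-fold and 2.41-fold. Asic4, an acid-sensing ion channel subunit, rose 2.58-fold, Lmo1, a LIM-only transcriptional regulator, 2.34-fold, and Ndst3, a heparan sulfate enzyme, 2.37-fold. Fam181a, of no function stated here, rose 2.39-fold.

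Synaptic genes rose less evenly. Of 32 tested members of the synapse and neurotransmitter list 14 rose and 0 fell (median log2 0.54). Gria1, an AMPA-type glutamate receptor subunit, had 10.4 and 9.06 CPM with TBBPA, against 3.71 and 4.26 CPM with DMSO, a 2.44-fold difference (log2 1.29 ± 0.18, edgeR adjusted p = 6.53e-05). Gad1, an enzyme of GABA synthesis, had 35.9 and 39 CPM with TBBPA, against 20.3 and 26 CPM with DMSO (log2 0.69 ± 0.14, edgeR adjusted p = 0.0019). The groups were apart in both genes, and the DMSO libraries were farther from each other for Gad1. Syt4, Syp and Scg3, proteins of secretory and synaptic vesicles, rose by 1.0, 0.72 and 0.66. Leaving out a library lowered the count to 9 without either TBBPA library, 5 without DMSO library 1 and 6 without DMSO library 2, and 3 were left with the DMSO pairs summed.

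Guidance and glial genes were mixed. In the axon guidance list 10 of 34 tested members rose and 3 fell (median log2 0.09). Cntn2, an adhesion protein of growing axons, had 127 and 142 CPM with TBBPA, against 76.4 and 74.6 CPM with DMSO (log2 0.83 ± 0.08, edgeR adjusted p = 1.57e-06). The members that fell were secreted semaphorins, Sema3a, Sema3c and Sema3d, with log2 changes of -0.65, -0.59 and -1.26. Without the 10 nM library 8 of the list rose and 7 fell, and without the 100 nM library or DMSO library 1 only 6 rose. Of 19 radial glia and astrocyte genes 6 rose and 1 fell. Fabp7 and Hopx, both used as markers of radial glia, rose by 0.58 and 0.60. Without DMSO library 2 only 3 rose. Gfap, the astrocyte filament, had 20.9 and 9.92 CPM with TBBPA, against 9.27 and 10.5 CPM with DMSO, so the groups overlapped.

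Among the lists, skeletal muscle had the most genes that fell. Of 32 tested members 24 fell and 0 rose, and the median log2 change was -1.42. Myog, the myogenic factor of differentiating myoblasts, had 2.15 and 1.01 CPM with TBBPA, against 8.17 and 9.42 CPM with DMSO, a 5.55-fold difference (log2 -2.47 ± 0.34, edgeR adjusted p = 5.86e-05). Myod1, which acts before it, had 0.701 and 0.101 CPM with TBBPA, against 3.91 and 5.26 CPM with DMSO (log2 -3.49 ± 0.45, edgeR adjusted p = 6.53e-05). For both factors the 100 nM library was the lowest of the 4. Pax7, a marker of muscle precursors and of the dorsal neural tube, did not follow them, with 2.05 and 3.68 CPM with TBBPA, against 1.85 and 1.88 CPM with DMSO (log2 0.61 ± 0.32, edgeR adjusted p = 0.26).

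Sarcomere proteins were among the largest falls. Myl1, a myosin light chain of fast fibres, had 1.35 and 0.755 CPM with TBBPA, against 7.77 and 7.14 CPM with DMSO, a 7.04-fold difference (log2 -2.81 ± 0.51, edgeR adjusted p = 0.00329). Myh3, the embryonic myosin heavy chain, had 5.15 and 3.47 CPM with TBBPA, against 22.1 and 26 CPM with DMSO, a 5.56-fold difference (log2 -2.48 ± 0.34, edgeR adjusted p = 0.00024). Per transcript length, the mean FPKM of Myh3 was 0.755 with TBBPA and 4.25 with DMSO. Myh8, the perinatal myosin, Tnnt3, a fast troponin T, and Atp2a1, the calcium pump of fast fibres, fell by 1.91, 1.89 and 1.98 on the log2 scale. Actn2, the Z-disc alpha-actinin, had 7.86 and 6.19 CPM with TBBPA, against 19.2 and 18.1 CPM with DMSO (log2 -1.41 ± 0.14, edgeR adjusted p = 2.97e-06). The summed level of 5 skeletal muscle markers was 15.4 and 11.3 CPM with TBBPA, against 58.2 and 64 CPM with DMSO, 4.58 times as high with DMSO, and 5 of the 5 fell. The part of cell numbers in these falls was not tested. The list kept 16 falls without the 100 nM library and 10 with the DMSO pairs summed.

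Promoters of muscle genes are shown because so many of them fell together. The sequences are the 250 bases before the start in RefSeq, build GRCm38.p6, written 5′ to 3′ on the gene's strand. Capitals mark CAGCTG, a palindromic E-box that MyoD family factors are known to bind, and the CArG box, bound by serum response factor. Both strands were searched, and the motifs do not overlap here. Chrng is the fetal acetylcholine receptor subunit, Acta1 and Actc1 are the skeletal and cardiac alpha-actins, and Elavl3 is given as a neuronal gene that rose. Chrng and Acta1 were chosen after their values were seen.
Chrng, chr1:87205561-87205810, plus strand: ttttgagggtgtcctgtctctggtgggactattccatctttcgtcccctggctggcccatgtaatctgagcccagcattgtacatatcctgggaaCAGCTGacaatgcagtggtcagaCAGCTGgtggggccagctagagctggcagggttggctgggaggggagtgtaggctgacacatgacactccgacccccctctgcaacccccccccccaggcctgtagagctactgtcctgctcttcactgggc
Acta1, chr8:123894776-123895025, minus strand: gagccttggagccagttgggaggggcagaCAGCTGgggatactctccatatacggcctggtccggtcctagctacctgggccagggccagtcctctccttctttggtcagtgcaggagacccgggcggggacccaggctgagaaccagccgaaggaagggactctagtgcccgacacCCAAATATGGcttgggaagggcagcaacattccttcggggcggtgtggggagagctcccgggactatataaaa
Actc1, chr2:114052876-114053125, minus strand: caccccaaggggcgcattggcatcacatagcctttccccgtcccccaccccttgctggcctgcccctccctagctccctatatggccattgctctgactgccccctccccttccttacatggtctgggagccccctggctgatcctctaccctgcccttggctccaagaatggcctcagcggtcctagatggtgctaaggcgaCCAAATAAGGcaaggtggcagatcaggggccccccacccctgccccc
Elavl3, chr9:22052024-22052273, minus strand: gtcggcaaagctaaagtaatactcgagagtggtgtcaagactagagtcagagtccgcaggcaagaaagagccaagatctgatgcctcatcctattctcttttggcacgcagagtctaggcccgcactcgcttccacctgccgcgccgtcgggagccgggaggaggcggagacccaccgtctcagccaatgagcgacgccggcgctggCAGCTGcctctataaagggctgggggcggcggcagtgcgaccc

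CAGCTG began 155 and 132 bases upstream of the start in Chrng, 221 upstream in Acta1 and 43 upstream in Elavl3. The CArG box began 73 bases upstream in Acta1 and 47 upstream in Actc1. The skeletal muscle genes that fell had 19 windows in RefSeq, from 18 of the 24 genes, and 10 of the windows (52.6%) held CAGCTG, against 13% of all 32851 windows of that length. Of 19 windows of neuron genes that rose, 4 (21.1%) held it. A CArG box stood in 2 windows of each set (10.5%), against 1.47% of all windows. A match only describes these letters. Chrng had 0.35 and 0.151 CPM with TBBPA, against 1.5 and 1.24 CPM with DMSO (log2 -2.42 ± 0.48, edgeR adjusted p = 0.00195), and Acta1 had 9.16 and 8.06 CPM with TBBPA, against 19.5 and 19 CPM with DMSO (log2 -1.16 ± 0.17, edgeR adjusted p = 0.000209).

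**Figure D3:**
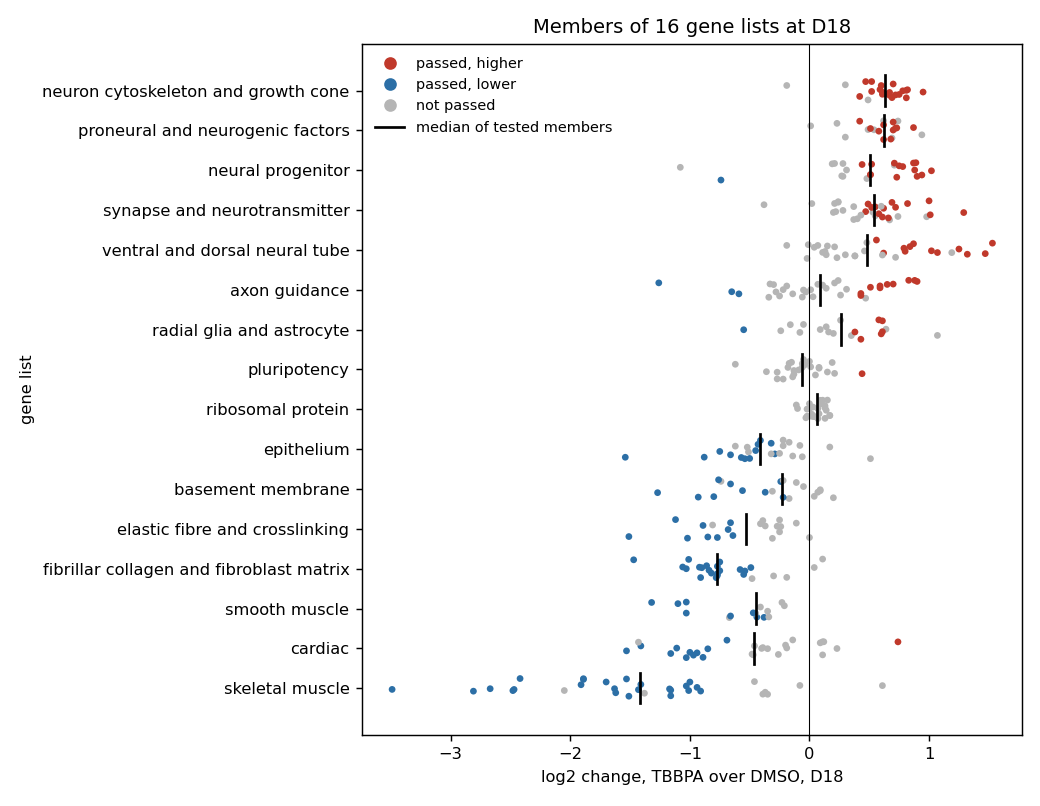
Log2 change of TBBPA over DMSO at D18 for each tested member of 16 gene lists, with red for members that rose, blue for members that fell, grey for the rest and a black bar at the median. The medians run from 0.63 for the neuron cytoskeleton to -1.42 for skeletal muscle, and ribosomal protein genes stay near 0 (median 0.06, with 0 members passing).

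Heart and smooth muscle genes fell in part. Of 28 cardiac genes tested 11 fell and 1 rose (median log2 -0.46). Actc1 had 23.2 and 15.8 CPM with TBBPA, against 53 and 59.7 CPM with DMSO, a 2.89-fold difference (log2 -1.53 ± 0.18, edgeR adjusted p = 6.78e-05). Myh6, the myosin of atrial muscle, had 40.8 and 33.3 CPM with TBBPA, against 69.1 and 64.5 CPM with DMSO, and Tnnt2, the cardiac troponin T, had 10.3 and 7.45 CPM with TBBPA, against 19.6 and 18.6 CPM with DMSO. These differences were 1.80-fold and 2.15-fold (edgeR adjusted p = 0.000557 and 0.000627). The heart factors Nkx2-5, Tbx5, Gata4 and Hand2 did not pass, with log2 changes of 0.11, -0.47, 0.23 and -0.26. The member that rose, named after its value was seen, was Hcn4, a pacemaker channel subunit also made by neurons (log2 0.74 ± 0.16, edgeR adjusted p = 0.00294). Several of the members that fell, such as Actc1, Actn2, Myl4 and Mef2c, also belong to developing skeletal muscle. The 5 cardiac markers summed to 63 and 51.6 CPM with TBBPA, against 105 and 96.2 CPM with DMSO, and 3 of them fell.

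Of 15 smooth muscle genes 8 fell and 0 rose (median log2 -0.45). Mylk, the myosin light chain kinase, had 21.5 and 14.1 CPM with TBBPA, against 38.4 and 34.4 CPM with DMSO (log2 -1.03 ± 0.12, edgeR adjusted p = 1.42e-05). Itga8, an integrin chain of contractile mesenchyme, had 21.4 and 14.9 CPM with TBBPA, against 37.3 and 40.8 CPM with DMSO (log2 -1.10 ± 0.12, edgeR adjusted p = 4.16e-06). In both, the 10 nM library lay between the 100 nM library and the DMSO pair. Without the 100 nM library, or without either DMSO library, 5 members fell.

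Collagens and other fibroblast matrix genes fell as well. Of 25 tested members 20 fell and 0 rose, with a median log2 change of -0.77. Col1a1, a chain of type I collagen, had 1358 and 871 CPM with TBBPA, against 1827 and 1963 CPM with DMSO, a 1.70-fold difference (log2 -0.77 ± 0.17, edgeR adjusted p = 0.00903). Ogn, the small proteoglycan osteoglycin, had 11.3 and 7.45 CPM with TBBPA, against 26 and 25.9 CPM with DMSO (log2 -1.47 ± 0.15, edgeR adjusted p = 3.33e-06). Fn1, fibronectin, had 1025 and 876 CPM with TBBPA, against 1393 and 1365 CPM with DMSO (log2 -0.54 ± 0.07, edgeR adjusted p = 2.03e-05). In each gene both DMSO libraries were above both TBBPA libraries, and the 100 nM library was the lowest. Postn, Col5a2 and Col12a1 fell by 0.77, 1.03 and 0.75 on the log2 scale. Sparc (log2 0.04), Pdgfra (0.11), Vcan (-0.30), Thbs1 (-0.19) and Thy1 (-0.48) did not pass. The 5 fibroblast markers summed to 2478 and 1636 CPM with TBBPA, against 3314 and 3474 CPM with DMSO, and 4 of them fell. Their part in the matrix result was not tested. The count was 13 without the 100 nM library or DMSO library 2, 7 when the 4 D18 libraries were fitted alone and 4 with the DMSO pairs summed.

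Elastic fibre genes showed the same direction. Of 20 tested members 9 fell and 0 rose (median log2 -0.53), and 15 fell without the 10 nM library, 6 without the 100 nM library or DMSO library 1, and 1 with the DMSO pairs summed. Eln, elastin, had 36.4 and 17.2 CPM with TBBPA, against 72.8 and 79.7 CPM with DMSO, a 2.84-fold difference (log2 -1.51 ± 0.22, edgeR adjusted p = 0.000631). Fbn2, the fetal fibrillin, had 183 and 143 CPM with TBBPA, against 292 and 297 CPM with DMSO (log2 -0.85 ± 0.11, edgeR adjusted p = 4.56e-05). The doses stood farther apart for Eln than for Fbn2. In basement membranes 9 of 20 tested members fell (median log2 -0.23), and 5 without the 100 nM library. Npnt, nephronectin, and the laminin chains Lama2, Lama4 and Lama5 fell by 0.80, 0.93, 0.66 and 0.37. Lama1 and Col4a1, chains of the early embryonic basement membrane, did not pass (log2 0.20 and 0.09). Among matrix proteases and their inhibitors 5 of 21 fell, against 8 without the 10 nM library, 3 without the 100 nM library or DMSO library 1 and 0 with the DMSO pairs summed, with Mmp2, a gelatinase, at 149 and 106 CPM with TBBPA, against 210.5 and 224 CPM with DMSO.

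Epithelial genes fell as well. Of 25 tested members 12 fell and 0 rose (median log2 -0.41). Krt17, a keratin of stratified epithelia, had 5.8 and 3.12 CPM with TBBPA, against 13.7 and 12.3 CPM with DMSO, a 2.91-fold difference (log2 -1.54 ± 0.20, edgeR adjusted p = 3.13e-05). Grhl2, a factor of epithelial identity, had 14.3 and 10.8 CPM with TBBPA, against 23.8 and 22.4 CPM with DMSO (log2 -0.88 ± 0.13, edgeR adjusted p = 0.000167). The groups were apart in both. Dsp, desmoplakin of the desmosome, fell by 0.54 ± 0.07. Krt5, a basal keratin, went the other way without passing, at 81.6 and 54.6 CPM with TBBPA, against 48.1 and 47.8 CPM with DMSO (log2 0.51 ± 0.17, edgeR adjusted p = 0.0839). The 4 basal epithelium markers summed to 148 and 93.3 CPM with TBBPA, against 117 and 115 CPM with DMSO, and 0 of them passed. The count was 5 without the 100 nM library, 6 without DMSO library 1 and 5 without DMSO library 2. Of 16 mucosal secretion genes 4 fell (median log2 -1.45), and fewer did when any of the 4 libraries was left out. Among them was Cyp2f2, a cytochrome of airway club cells, at 1.9 and 0.705 CPM with TBBPA, against 7.12 and 7.83 CPM with DMSO (log2 -2.51 ± 0.49, edgeR adjusted p = 0.00498). The median of this list rests partly on genes of low count. In the 4 D18 libraries alone only 8 members passed the low count filter (median -1.48). With limma on log2(FPKM + 1) the median of 12 members was -0.22.

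The largest falls outside these groups were of several kinds. Ctsj, a cathepsin expressed in placenta, had 4.5 and 5.14 CPM with TBBPA, against 18.1 and 18.2 CPM with DMSO, a 3.77-fold difference (log2 -1.91 ± 0.15, edgeR adjusted p = 4.53e-07). Cryaa, the lens alpha-crystallin, had 4.5 and 2.37 CPM with TBBPA, against 13.9 and 14.3 CPM with DMSO, a 4.10-fold difference (log2 -2.04 ± 0.28, edgeR adjusted p = 5.34e-05). In both genes the DMSO libraries were close to each other and both TBBPA libraries lay far below them. Prl2c3, a prolactin family member of the placenta, Abi3bp, a matrix protein, Mal2, a membrane protein of polarised epithelia, and Pax1, a factor of the sclerotome, fell by 1.72, 1.80, 1.60 and 1.55 on the log2 scale.

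Genes of nuclear receptor pathways were looked at next, beside the 5.96% of all genes tested that rose and the 4.56% that fell. Of 17 thyroid hormone genes 1 rose, the receptor Thra, at 236 and 202 CPM with TBBPA, against 171 and 173 CPM with DMSO (log2 0.35 ± 0.08, edgeR adjusted p = 0.00357). Thrb, the other receptor, had 2.25 and 1.76 CPM with TBBPA, against 2.41 and 2.08 CPM with DMSO, and the groups overlapped (log2 -0.16 ± 0.29, edgeR adjusted p = 0.815). Of 15 adipocyte and PPAR gamma genes 2 fell, Lpl, lipoprotein lipase, and the receptor Pparg, at 1.95 and 1.61 CPM with TBBPA, against 4.06 and 3.52 CPM with DMSO (log2 -1.09 ± 0.25, edgeR adjusted p = 0.00669). Of 9 aryl hydrocarbon receptor genes 3 fell, among them Ahr itself (log2 -0.83 ± 0.18) and its target Cyp1b1 (-0.45 ± 0.10). Cyp1a1, its best known target, had 0.801 and 0.957 CPM with TBBPA, against 0.251 and 0.347 CPM with DMSO, and did not pass (log2 1.53 ± 0.54, edgeR adjusted p = 0.0768). In the estrogen and androgen list 1 of 13 rose and 1 fell, and 0 passed without the 10 nM library or either DMSO library. Without the 100 nM library 0 genes of the PPAR gamma and aryl hydrocarbon receptor lists passed, and the Thra list held 0 rises without the 10 nM library or DMSO library 1.

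Wnt and BMP genes that passed moved both ways, and retinoic acid and IGF genes that passed were all lower. Beside these counts, 5.96% of all genes tested rose and 4.56% fell, and the Wnt and BMP rises were near that share. Of 32 Wnt genes 3 rose and 5 fell. The ligands Wnt3 and Wnt7a rose by 1.02 and 0.96 on the log2 scale, while the ligands Wnt4 and Wnt6 fell (log2 -0.67 and -0.49). Rspo3 rose by 0.90. The antagonists Sfrp1 and Dkk3 fell by 0.40 each, and Dkk2 fell too (log2 -0.73). Axin2, Lef1, Nkd1 and Notum did not pass (log2 0.01, 0.21, -0.19 and -0.13). Of 26 BMP and TGF beta genes 2 rose and 4 fell, Id4, an inhibitor of bHLH factors, and Inhba, an activin chain, moving by 0.67 and -1.0. In the retinoic acid list 0 rose and 5 of 16 fell, with the receptors Rarb and Rarg at log2 -0.92 and -0.56, and in the IGF axis 0 rose and 5 of 18 fell. Igf2, a fetal growth factor, had 2962 and 2236 CPM with TBBPA, against 3906 and 4008 CPM with DMSO (log2 -0.61 ± 0.14, edgeR adjusted p = 0.0116). Retinoic acid genes that fell numbered 2 without the 100 nM library and 3 without either DMSO library, and IGF genes that fell numbered 2 without any of these 3. Wnt falls numbered 1 without the 100 nM library and 2 without DMSO library 2, and BMP falls 9 without the 10 nM library and 1 without the 100 nM library or DMSO library 1. Of 16 imprinted genes tested 3 rose and 6 fell, and 1 fell without the 100 nM library or DMSO library 1 and 2 without DMSO library 2. Nnat, neuronatin, was the clearest of them, at 1129 and 1005 CPM with TBBPA, against 663 and 663 CPM with DMSO (log2 0.69 ± 0.09, edgeR adjusted p = 3.92e-05).

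The remaining lists described here had 0 to 3 calls each. Among 25 pluripotency genes 1 rose, beside 5.96% of all genes tested. It was Otx2, which also marks anterior neural tissue (log2 0.44 ± 0.10, edgeR adjusted p = 0.00489). Nanog had 85.8 and 106 CPM with TBBPA, against 110.0 and 114 CPM with DMSO. Of 35 Hox genes, 26 ribosomal protein genes, 25 respiratory chain genes, 26 glycolysis and hypoxia genes and 18 NRF2 targets, 0 passed in either direction. Of 27 S phase and mitosis genes 2 fell, beside 4.56% of all genes tested, and the median log2 change of the list was -0.02. Mki67, a marker of cycling cells, was 1 of them, at 258 and 278 CPM with TBBPA, against 317 and 311 CPM with DMSO (log2 -0.23 ± 0.06, edgeR adjusted p = 0.0197). Of 20 p53 targets 3 fell, beside 4.56% of all genes tested, with Cdkn1a, a cell cycle inhibitor, at log2 -0.23.

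The doses were then set side by side. Each is 1 library, so the difference between them was tested with the spread of the DMSO and ES pairs, in a fit added after the data were seen. Each lone library is assumed to vary like those pairs, whose spread may be technical, so the p-values between doses may be too small. Those pairs were unlike in spread, with a mean chi-square of 22.5 per gene in the ES pair and 1.63 to 3.38 in the DMSO pairs. The part of the ES pair in these p-values was not tested. By that fit 35 genes (0.214% of those tested) differed, 4 higher and 31 lower at 100 nM. Genes that fell lay further from DMSO at 100 nM in 616 of 747 cases (82.5%), with median log2 changes of -0.50 at 10 nM and -0.76 at 100 nM. For genes that rose the share was 45.6%, with medians of 0.52 at 10 nM and 0.50 at 100 nM. How many of all genes tested were lower at 100 nM than at 10 nM was not counted. A general difference between these lone libraries and a difference by dose cannot be told apart here. Collagen and fibroblast matrix genes had a median of -0.51 at 10 nM and -1.12 at 100 nM, and 8 of the 25 were lower at 100 nM than at 10 nM by the test. Eln differed by -1.09 on the log2 scale between the doses (edgeR adjusted p = 0.00246). Skeletal muscle had medians of -1.29 at 10 nM and -1.47 at 100 nM, and 0 of its members differed between the doses.

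**Figure D4:**
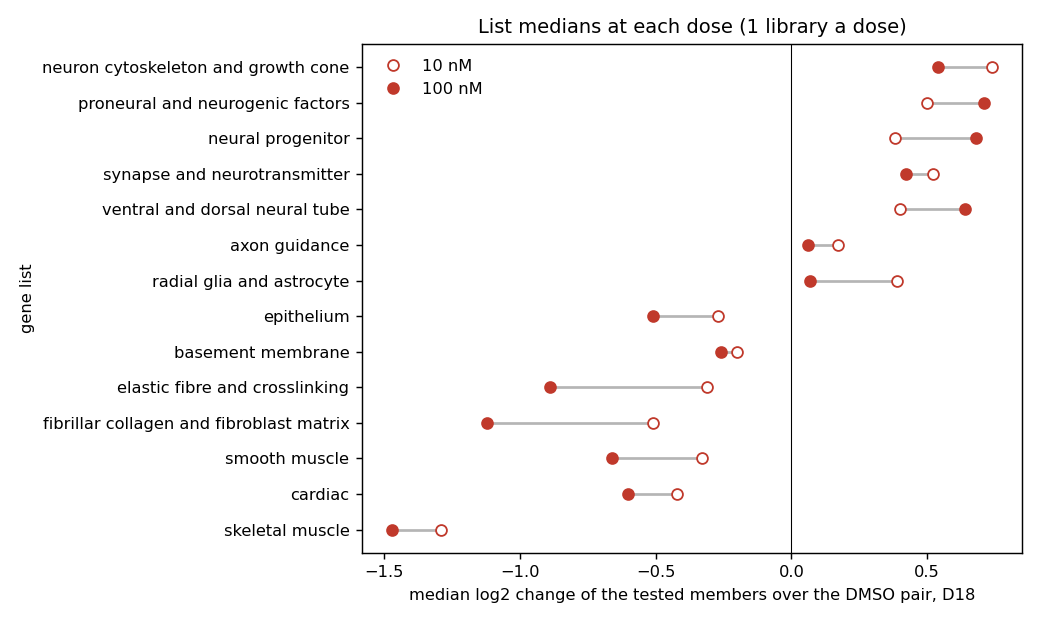
Median log2 change over the DMSO pair of the tested members of 14 gene lists, at 10 nM (open circles) and at 100 nM (filled circles), 1 library a dose. The matrix list lies at -0.51 at 10 nM and -1.12 at 100 nM, and the neuron list at 0.74 at 10 nM and 0.54 at 100 nM.

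Some genes were above DMSO at 10 nM only. Afp, the fetal plasma protein of yolk sac and liver, had 428 and 154 CPM with TBBPA, against 208 and 213 CPM with DMSO, and its doses differed by -1.47 on the log2 scale (edgeR adjusted p = 0.00164). Apoa1, an apolipoprotein named after its values were seen, had 58.1 and 22.2 CPM with TBBPA, against 27.3 and 27.8 CPM with DMSO. In both genes the 10 nM library was the highest of the 4 and the 100 nM library the lowest, so the groups overlapped. The 4 yolk sac endoderm markers summed to 598 and 274 CPM with TBBPA, against 322 and 322 CPM with DMSO. Of 21 yolk sac and liver genes 1 rose and 0 fell, beside 5.96% of all genes tested that rose. It was Amn, a receptor subunit of the visceral endoderm (log2 0.84 ± 0.15, edgeR adjusted p = 0.000829). Without the 100 nM library 4 rose. The list had median log2 changes of 0.42 at 10 nM and -0.14 at 100 nM, and 5 members were lower at 100 nM than at 10 nM by the test between doses.

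The effect at D18 was compared with those at D12 and D28, which share no library with it. TBBPA against DMSO gave calls in 21.1% of genes at D12 (3452, of which 1947 were higher) and in 7.09% at D28 (1162, of which 598 were higher). The share of all genes tested with a positive or a negative change at those days was not counted. The percentages of like sign below therefore have no background beside them. Of the 976 genes that rose at D18, 92.9% had a positive change at D12 and 665 passed there the same way, while 70.4% had a positive change at D28 and 82 passed. Of the 747 that fell, 83.9% were negative at D12 and 289 passed, and 90.2% were negative at D28 and 271 passed. Calls in the same direction at all 3 days numbered 48 for rises and 90 for falls.

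The difference between the days was tested directly. The effect at D18 differed from that at D12 in 309 genes (1.89% of those tested), and from that at D28 in 253 (1.54%). With the DMSO pairs summed, a setting added after the data were seen, 0 genes differed in edgeR's test in either comparison (865 and 842 at an unadjusted p under 0.05). Of the 309, 213 were higher at D18 than at D12 and 96 lower, and of the 253, 160 were higher at D18 than at D28 and 93 lower. Dbx1 had 3.36 and 3.63 CPM with TBBPA at D28, against 3 and 3.59 CPM with DMSO, and its effect at D18 exceeded that at D28 by 1.17 ± 0.27 on the log2 scale (edgeR adjusted p = 0.0338). Cntn2 and Ebf3 differed from D28 in the same direction, by 1.03 ± 0.17 and 0.95 ± 0.21. The count against D12 was 86 without DMSO library 1 of D18 and 109 without DMSO library 2, 173 and 90 without the 10 nM or 100 nM library of D12, and 95 and 107 without its DMSO library 1 or 2. The count against D28 was 103 without the 100 nM library of D18, 23 and 36 without its DMSO library 1 or 2, 114 without the 100 nM library of D28, and 21 and 18 without the DMSO library 1 or 2 of that day.

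Muscle genes showed a different time course. Of 32 skeletal muscle genes 24 fell at D18, 6 at D12 and 25 at D28, with median log2 changes of -1.42, -0.31 and -1.18. Several members were near the floor at D12 with DMSO too, so a fall could hardly be called there. Myog had 0.356 and 0.256 CPM, Myl1 0.305 and 0.205 CPM and Myh8 0.458 and 0.358 CPM in the DMSO libraries of D12. The low count at D12 is thus not evidence of an absent effect in such genes. Actn2 had 6.49 and 5.78 CPM with TBBPA at D12, against 6.52 and 7.26 CPM with DMSO, so the groups were close at that day. At D28 it had 10.7 and 9.86 CPM with TBBPA, against 19.6 and 20.5 CPM with DMSO. Its effect at D18 was lower than that at D12 by 1.24 ± 0.21 (edgeR adjusted p = 0.00391), and 6 muscle genes in all differed this way, while 0 differed from D28. Actc1 and Mylk were also lower at D18 than at D12, by 1.30 ± 0.25 and 1.25 ± 0.19. Ogn differed from D28 by -1.05 ± 0.19 (edgeR adjusted p = 0.01), and at D28 it had 82.3 and 78.6 CPM with TBBPA, against 104 and 111 CPM with DMSO.

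**Figure D5:**
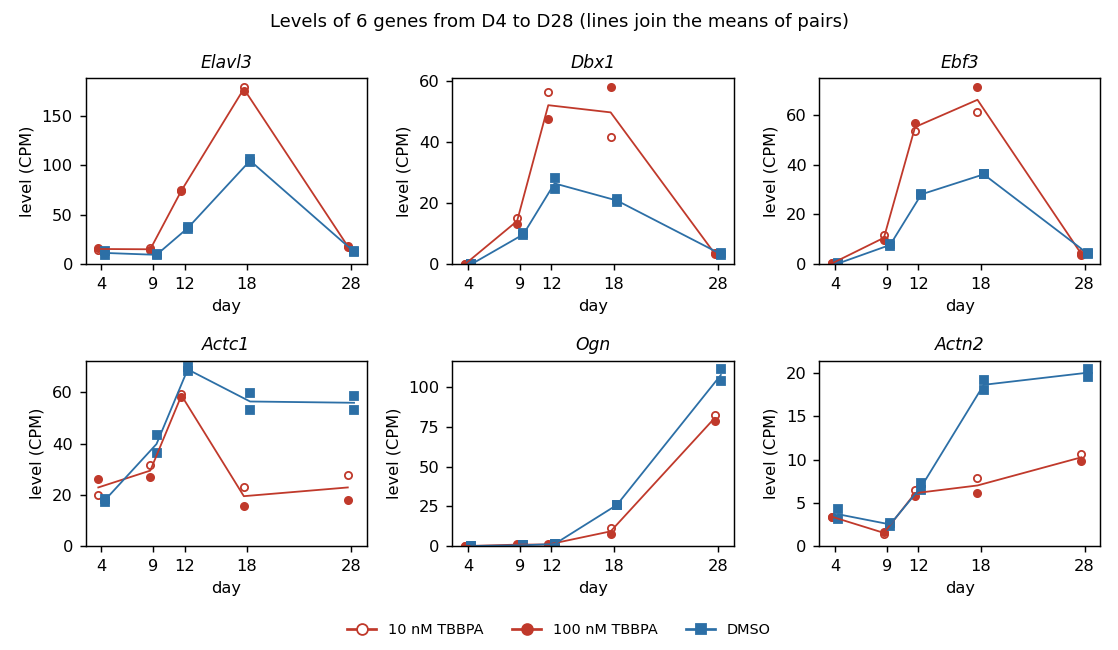
Level (CPM) of 6 genes at D4, D9, D12, D18 and D28, with open circles for 10 nM TBBPA, filled circles for 100 nM TBBPA, squares for DMSO and lines through the means of pairs. Elavl3, Dbx1 and Ebf3 lie higher with TBBPA at D12 and D18 and are low in all libraries at D28, while Actc1 and Actn2 lie far below DMSO at D18 and D28.

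Endoderm genes differed between the days. Of 18 tested members 13 fell with TBBPA at D12, while 2 rose and 1 fell at D18, and 10 members differed between D18 and D12, 9 of them toward higher values at D18. Sox17, an endoderm and endothelial factor, had 93.7 and 86.6 CPM with TBBPA at D18, against 63.7 and 65 CPM with DMSO (log2 0.49 ± 0.08, edgeR adjusted p = 0.000381). At D12 it had 28.5 and 29.3 CPM with TBBPA, against 35.7 and 29.3 CPM with DMSO. The effects differed by 0.66 ± 0.12 (edgeR adjusted p = 0.00593).

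The normal course of these genes was read from DMSO libraries of D28 against D12, which the D18 comparison does not use. Over that span 31.7% of all genes tested rose and 33.3% fell. Of the genes lower with TBBPA at D18, 486 (65.1%) were among those that rise in DMSO embryoid bodies and 133 (17.8%) among those that fall. Of the genes higher with TBBPA, 321 (32.9%) rise and 427 (43.8%) fall. A fall over that span does not mean a decline before D18. With DMSO, Tubb3 had 117 and 122 CPM at D12, 216 and 228 at D18 and 26.1 and 24 at D28. Lhx9 had 3 and 2.76 CPM at D12, 7.87 and 6.74 at D18 and 0.75 and 0.556 at D28. Dbx1 went from 28.3 and 24.5 CPM at D12 to 21.3 and 20.3 at D18, and Sst from 11.5 and 9.57 to 2.31 and 2.68. Genes of each kind were not counted. By list, 23 of 25 matrix genes and 23 of 32 skeletal muscle genes rose over the DMSO course, and 17 of 20 proneural and 20 of 24 progenitor genes fell. Other lists ran otherwise: of 19 radial glia and astrocyte genes 16 rose and 0 fell over that course, of 15 smooth muscle genes 4 rose and 8 fell, and of 32 synapse genes 11 rose and 13 fell.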

How the data were processed

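RNA sequencing tables of all 22 libraries were used. The authors deposited, for each gene and library, an expected count and an FPKM value. HISAT, Bowtie2 and the build GRCm38.p5 are named in the submitters' processing notes, and the counting tool and strand setting are not given in the sources used here, so overlapping and antisense genes, and near-identical copies, are uncertain. Expected counts (64.9% to 66.7% whole numbers per library; totals 18158583 to 18998141) were rounded. Genes were kept by filterByExpr (minimum count 10, total 15), scaled by TMM, and tested with edgeR 4.0.16 (quasi-likelihood, R 4.3.3) over 11 groups with 11 residual degrees of freedom; p-values were adjusted by Benjamini-Hochberg and called under 0.05. The ± after a log2 change is its standard error, the log2 change divided by the root of F. Each group holds 2 libraries. The TBBPA pair joins 10 nM and 100 nM, so its spread includes any effect of dose. The doses were also fitted as separate groups (6 residual degrees of freedom).

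The named genes were, among passing genes whose groups did not overlap and whose mean log2 CPM reached 2, the 12 largest rises and 12 largest falls, up to 5 passing members of each list by p, and a panel of 20 genes; other list members named were picked after their values were seen. The 54 gene lists and the comparison were chosen with earlier results of these data known. Of 1136 listed names 1128 were in the tables, 4 of them matched by gene ID. Alternatives were DESeq2 1.42.0, other scalings and filters, limma 3.58.1 on log2(FPKM + 1) and log2(FPKM + 0.1), fewer libraries, and DMSO pairs summed. The fit was checked on simulated counts. Promoters came from RefSeq, GRCm38.p6, and figures from matplotlib 3.10.9 in Python 3.11.15. Some results are not reported here.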

Additional observations from a re-analysis of the deposited data

Results flagged for a closer look

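The results below were picked out because the effect of TBBPA at D18 differed from that at another day in edgeR's test of the difference itself (adjusted p under 0.05). Values are the log2 effect at D18 minus the log2 effect at the other day. All of these calls ended when the DMSO pairs were summed, where 0 genes differed between days.

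The genes named here had been chosen for passing at D18, which favours a larger effect at that day. Over whole lists, 5 of 24 progenitor, 2 of 20 proneural, 3 of 23 neuron cytoskeleton and 1 of 32 synapse genes differed from D28, all higher at D18. Of all genes tested 1.54% differed from D28, and the synapse count is near that share. Among single genes against D28, the difference was 1.57 for Asic4, 1.0 for Gria1, 1.17 for Dbx1, 1.68 for Ndst3 and 1.41 for Lmo1, all among the largest rises. Some of these were low at D28. Asic4 had 1.32 and 2.04 CPM with TBBPA, against 2.2 and 1.67 CPM with DMSO, and Ndst3 1.48 and 1.53 CPM, against 1.95 and 2.12 CPM. Gria1 was higher, at 16.1 and 13.8 CPM with TBBPA, against 12.8 and 11.8 CPM with DMSO. It was 0.78 for Pou3f3, 0.73 for Pou3f2, 0.95 for Ebf3, 1.03 for Cntn2, 0.50 for Ptprz1 and 1.38 for Lhx2. It was 0.53 for Hes6, 1.24 for Fgf15 and 0.51 for Ndn.

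Also against D28, the effect was lower at D18 in other named genes. Of 25 epithelium genes 1 differed, Krt17, near the 1.54% of all genes tested. The difference was -1.08 for Krt17, -0.96 for Sbsn, -2.01 for Muc4, -1.74 for Elf5 and -1.70 for Cryaa. It was -1.05 for Ogn, -0.42 for Hspb8, -0.55 for Mki67 and -0.66 for Cenpf.

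Against D12, 6 of 32 skeletal muscle, 2 of 15 smooth muscle and 3 of 20 elastic fibre genes differed, all lower at D18, while 2 of 25 fibroblast matrix and 3 of 20 basement membrane genes differed, all higher at D18. Of all genes tested 1.89% differed from D12. Among single named genes the difference was -1.24 for Actn2, -2.07 for Tnnt3, -1.30 for Actc1, -0.85 for Itga8 and -1.25 for Mylk. It was -0.66 for Fbn2, -1.0 for Mfap4, -0.54 for Fstl1, -1.46 for Heyl, -1.08 for Sema3d, -0.59 for Fabp7 and -0.47 for Mest. Sox17, Amn and Hopx were higher at D18 than at D12, by 0.66, 1.52 and 0.97.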

How the results depend on the processing

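The 1723 genes called at D18 became 1043 with limma on log2(FPKM + 0.1) and 173 with each DMSO pair summed, and ranged from 737 to 1350 with 1 library left out. With library size alone in place of TMM, 880 rose and 850 fell. The 309 genes that differed from D12 became 160 with limma on log2(FPKM + 0.1) and 0 with DMSO summed (range 86 to 342 with 1 library left out). The 253 that differed from D28 became 445 with limma on log2(FPKM + 1), 33 on log2(FPKM + 0.1) and 0 with DMSO summed (range 18 to 274). The DMSO course from D12 to D28 stayed within 1.5 times of 10645 (9306 to 9412 with 1 library left out). Of the 196 named genes, of which 186 passed, 128 lost their call with DMSO summed, 39 of 191 with limma on log2(FPKM + 0.1), 19 of 194 in the 4 D18 libraries alone, 12 of 195 with DESeq2, and 2 to 9 under each of 5 further settings. A stricter filter ended 0. Leaving out 1 library ended the call in 191 of 784 cases. With 1 library left out, 3 named genes changed sign, none of which passed in the main test: Pou5f1 ranged from -0.10 to 0.09 (0.06 without DMSO library 2), Afp from -0.45 without the 10 nM library to 1.02 without the 100 nM library, and Thrb from -0.35 to 0.00 (without the 100 nM library). The cause of these shifts was not tested. No paired analysis was possible because the titles give the TBBPA libraries a dose and no replicate number. Each dose is 1 library and each group 2, which limits the precision of all values.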
